A study of Homo sapiens with 6 samples.

Results

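The 43 glycolysis and gluconeogenesis genes described here were the genes of the deposited table whose KEGG pathway entry named that pathway, out of 29153 listed genes. The entry stood in 61 rows, and the aldehyde, alcohol and aldo-keto enzymes (names starting with ADH, ALDH or AKR), the subunits DLD and DLAT and the acetate enzyme ACSS2 were left out, so that the enzymes between glucose, lactate and acetyl-CoA remained. The RNA came from HepG2, an established human hepatocellular carcinoma line, in 6 bulk RNA-seq libraries. Lentivirus had carried either a control short hairpin (sh-NC, 3 libraries) or 1 short hairpin against the long non-coding RNA LINC01977 (sh-LINC01977, 3 libraries) into the cells, with a label of 72 h for both groups. Both groups had therefore been infected, and the study's methods describe puromycin selection of such cells. The design asks which genes differ when LINC01977 is targeted. The labels do not say that the libraries of a group were separate cultures, so the p-values measure the spread between these libraries, which may be technical.

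Library totals ran from 49929024 to 60441515 counts. The listed counts of LINC01977 itself were 4, 0 and 16 in sh-NC and 0, 0 and 4 in sh-LINC01977, so a decrease of the targeted RNA was not detectable at this depth. The study reports that knockdown in its HepG2 line was verified by qRT-PCR, without saying whether the sequenced RNA was measured. Markers of hepatocytes and of HepG2 summed to between 4444 and 4813 FPKM in sh-NC and to between 3128 and 3195 FPKM in sh-LINC01977. FPKM is a level scaled for transcript length and depth. Of these 9 markers, which include AFP, 7 were lower by edgeR's quasi-likelihood test (adjusted p under 0.05), beside 8.07% of all genes tested. Of other cell types, the 3 endothelial markers summed to at most 0.441 FPKM, the 5 listed mesenchymal markers to between 3.04 and 7.67 FPKM, and PTPRC, which defines leukocytes, was near 0. The leukocyte list, mostly CD68, summed to between 9.23 and 12.5 FPKM in sh-NC and between 13.5 and 15.7 FPKM in sh-LINC01977. The mesenchymal sum was higher in sh-LINC01977 (5.48 to 7.67 FPKM) than in sh-NC (3.04 to 4.21 FPKM). The part of these markers in the results on the glycolytic genes was not tested, and in bulk RNA a change in the kinds of cell and a change in RNA per cell cannot be told apart.

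Glycolysis splits glucose into pyruvate and yields ATP, with 3 practically irreversible steps, those of hexokinase, phosphofructokinase and pyruvate kinase. Gluconeogenesis, a main task of the normal liver, runs the reversible steps backwards and goes around the irreversible ones with glucose 6-phosphatase, fructose bisphosphatase and phosphoenolpyruvate carboxykinase. Several steps have isoenzymes from separate genes, and liver tumours often use other isoenzymes than the mature hepatocyte does, which relies on the liver pyruvate kinase of PKLR among others.

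After LINC01977 targeting, 3 of the glycolytic genes were higher (HK1, PFKP and ENO3) and 3 were lower (ACSS1, PGM1 and PDHB), while the abundant enzymes of the central trunk did not pass the test. The number called higher depended on the fit, with 6 under DESeq2, 7 with library totals in place of TMM, 6 under limma and 2 in each fit without 1 library. The test was made for the 31 genes with a mean of at least 0.5 FPKM, with a Benjamini-Hochberg adjusted p under 0.05 taken as a call, and 12 genes lay below that level. The 6 calls made up 19.4% of the 31, where the same test called 15.1% of all 13452 genes tested. The 3 higher genes stand beside a background of 7.05% called higher, and the 3 lower genes beside 8.07% called lower. The study's own thresholds (fold change 2 or more, unadjusted P no greater than 0.05) were also applied to this edgeR fit, not to the study's own comparison. HK1 was then the 1 higher gene (beside 1.55% of all genes tested) and ACSS1 the 1 lower gene (beside 1.05%). The groups did not overlap in 11 of the 31 genes, or 35.5%, against 37.1% of all genes.

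The genes did not shift as a block. Their log2 fold change (sh-LINC01977 against sh-NC) was above 0 in 15 and below 0 in 16, with a median of -0.0031 beside -0.0010 for all genes. The median size of the change regardless of direction was 0.18, the same as for all genes at this precision. Of the 25 genes that were not called, 21 had a 95% interval that lay within a 1.5-fold change in either direction. The share of all counts that the 43 genes took was 1.28%, 1.43% and 1.28% in sh-NC and 1.45%, 1.36% and 1.32% in sh-LINC01977, with groups that overlapped.

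**Figure D1:**
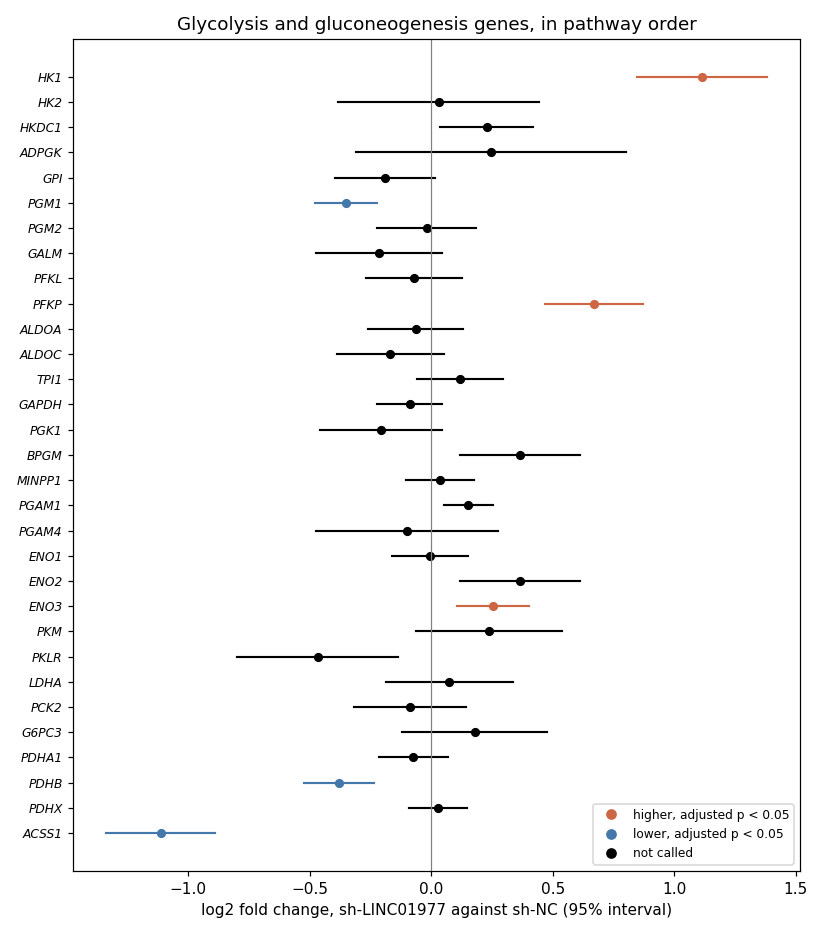
Log2 fold change of sh-LINC01977 against sh-NC for the 31 tested genes in pathway order, with points for the estimate and lines for the 95% interval of edgeR's quasi-likelihood fit on 3 against 3 libraries. HK1 (1.12) and PFKP (0.67) lie farthest to the right and ACSS1 (-1.11) farthest to the left, while most intervals cross 0.

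The first step, the phosphorylation of glucose, had 4 tested enzymes, and HK1 was the 1 that was called. HK1 (ENSG00000156515, GRCh38 chr10:69269984-69401882, plus strand) encodes the hexokinase found in most tissues, which binds to mitochondria. In CPM, counts scaled to the library's total with the TMM factors of edgeR, HK1 stood at 7.18, 7.76 and 8.04 in sh-NC and at 17.2, 17.8 and 14.7 in sh-LINC01977. All 3 targeted libraries were therefore above all 3 controls, and the lowest of them was well clear of the highest control. The increase was 2.17-fold (log2 fold change 1.12 ± 0.11 SE, 95% interval 0.85 to 1.38, edgeR adjusted p = 0.00191). HK1 shares no bases with another listed gene, and it remained called in all 14 alternative fits, with log2 fold changes from 0.70 to 1.19.

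HK1 was nevertheless a minor transcript of this step. Per length, it reached 1.0 ± 0.07 FPKM in sh-NC (mean ± SD, n = 3) and 2.26 ± 0.20 FPKM in sh-LINC01977. HK2, the inducible hexokinase typical of tumours, was the most abundant enzyme of the step at 31.1 ± 6.3 and 33.2 ± 5.0 FPKM. Its CPM varied widely within each group, with 238, 286 and 190.0 in sh-NC and 270, 261 and 198 in sh-LINC01977. The groups overlapped fully, and the log2 fold change was 0.03 (95% interval -0.38 to 0.44, edgeR adjusted p = 0.927).

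HKDC1, a hexokinase domain protein whose gene ends 2424 bases before HK1 on the same chromosome, was the second most abundant of the step. It stood at 65.6, 74.1 and 62.4 CPM in sh-NC and at 81.7, 80.9 and 74.3 CPM in sh-LINC01977. The groups were separated by a narrow margin, and the log2 fold change of 0.23 did not pass (edgeR adjusted p = 0.109). ADPGK, which uses ADP to phosphorylate glucose, had the widest spread within groups of the tested genes, from 35.98 to 57.9 CPM in sh-NC and from 49.3 to 76.0 CPM in sh-LINC01977. Its log2 fold change was 0.25 (95% interval -0.31 to 0.80).

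The sugar phosphates that follow are interconverted by GPI, PGM1, PGM2 and GALM, and PGM1 was called lower. PGM1 (ENSG00000079739, chr1:63593276-63660245, plus strand) links glucose 6-phosphate with glucose 1-phosphate and so with glycogen and sugar nucleotides. It stood at 105, 115 and 114 CPM in sh-NC and at 87.8, 86.4 and 87.4 CPM in sh-LINC01977. The 3 targeted libraries lay close together and below all 3 controls, a 1.27-fold decrease (log2 fold change -0.35 ± 0.05 SE, edgeR adjusted p = 0.00829). PGM1 shares 446 bases with ITGB3BP on the opposite strand, whose log2 fold change was 0.39, and the sources used here do not state whether counting used strand. GPI, which turns glucose 6-phosphate into fructose 6-phosphate, had 435, 490 and 391 CPM in sh-NC and 405, 381 and 368 CPM in sh-LINC01977. Those groups overlapped, with a log2 fold change of -0.19 (edgeR adjusted p = 0.191). The values for GALM and PGM2 were -0.21 and -0.02, neither called.

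At phosphofructokinase, the committed step, 1 of the isoenzymes was called higher. PFKP (ENSG00000067057, chr10:3066333-3137712, plus strand), the platelet form, stood at 34.5, 39.4 and 33.6 CPM in sh-NC and at 60.3, 53.2 and 57.7 CPM in sh-LINC01977. Every targeted library exceeded every control, and the fitted difference between the groups was 1.59-fold (log2 fold change 0.67 ± 0.08 SE, 95% interval 0.47 to 0.87, edgeR adjusted p = 0.00416). PFKL, the liver form, had 129, 159 and 136 CPM in sh-NC and 137, 135 and 131 CPM in sh-LINC01977, with overlapping groups and a log2 fold change of -0.07 (95% interval -0.27 to 0.12). That value became 0.02 without the second sh-NC library. PFKM, the muscle form, was below the test level, with counts of 95, 108 and 87 in sh-NC and 204, 137 and 137 in sh-LINC01977. These counts did not overlap between the groups, and with all listed genes tested the log2 fold change was 0.66 (edgeR adjusted p = 0.241). PFKM shares 1170 bases with SENP1 on the opposite strand, which had 7869 counts over the 6 libraries against 768 for PFKM. The summed level of the 3 genes was 17.1, 20.9 and 17.9 FPKM in sh-NC and 23.5, 21.6 and 22.7 FPKM in sh-LINC01977.

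As shares of that sum, PFKL had 67.4 ± 0.97% in sh-NC and 55.3 ± 1.8% in sh-LINC01977 (SD, n = 3), and PFKP had 31.6 ± 0.94% and 43.3 ± 1.5%. In neither share did the groups overlap, and the exact two-sided permutation test gave p = 0.1, the smallest that 3 against 3 libraries allow (adjusted p = 0.188 over 15 isoenzyme shares). The difference was smaller when shares were taken from counts, 9.28 percentage points for PFKP in place of 11.7. At the hexokinase step, the share of HK1 was 1.99 ± 0.42% and 3.83 ± 0.10%, again without overlap and with the same exact p of 0.1. HK2 held 60.4 ± 1.9% and 56.0 ± 3.1% of that step, with overlapping groups (exact p = 0.2).

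**Figure D2:**
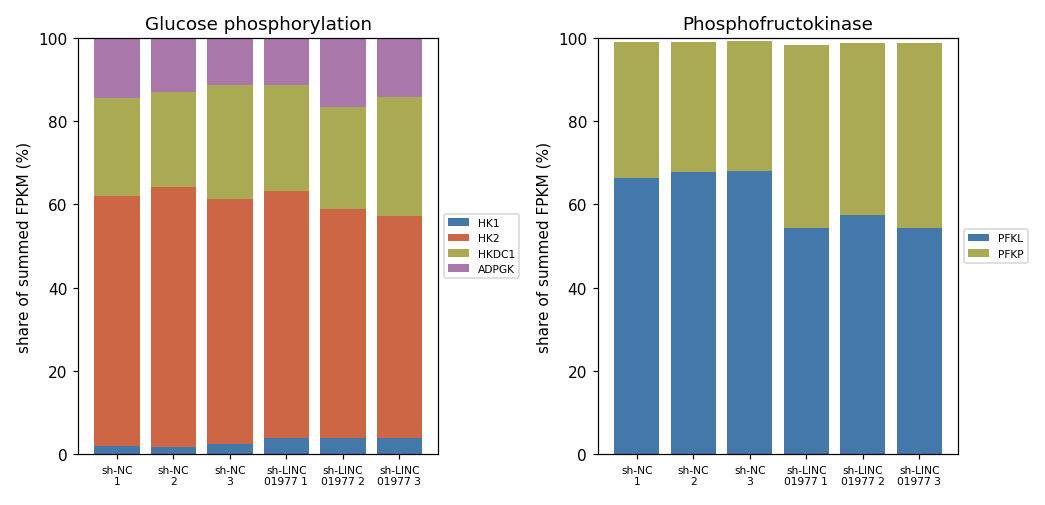
Share of each tested isoenzyme in the summed FPKM of its step (vertical axis, percent) in each of the 6 libraries, for glucose phosphorylation on the left and phosphofructokinase on the right, with genes below the test level as the undrawn rest up to 100%. PFKP holds 31.0% to 32.7% of its step in the sh-NC libraries and 41.5% to 44.3% in the sh-LINC01977 libraries, while HK2 remains the main enzyme of glucose phosphorylation in all 6.

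The trunk from aldolase to enolase held the most abundant transcripts, and none of its main enzymes was called. GAPDH, which is also a common reference gene for RNA and protein assays, was the most abundant of the 43 at 999 ± 56 FPKM in sh-NC and 982 ± 48 FPKM in sh-LINC01977. It stood at 3713, 3971 and 3567 CPM in sh-NC and at 3728, 3493 and 3362 CPM in sh-LINC01977. The groups overlapped, and the log2 fold change was -0.09 (95% interval -0.22 to 0.04, edgeR adjusted p = 0.332). ENO1, the general enolase and the next in level, had 2632, 2935 and 2512 CPM in sh-NC and 2791, 2718 and 2553 CPM in sh-LINC01977. Its log2 fold change was -0.0031, with an interval from -0.16 to 0.15, and its sign turned under 6 of the 14 alternatives.

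Aldolase A (ALDOA), the form of muscle and of many tumours, had 937, 955 and 883 CPM in sh-NC and 954, 926 and 775 CPM in sh-LINC01977. TPI1, which equilibrates both triose phosphates, had 620, 663 and 612 CPM in sh-NC and 746, 617 and 694 CPM in sh-LINC01977. PGK1, the first ATP-yielding enzyme, had 715, 864 and 682 CPM in sh-NC and 680, 695 and 586 CPM in sh-LINC01977. In each of these 3 genes the groups overlapped. Their log2 fold changes were -0.06 for ALDOA, 0.12 for TPI1 and -0.20 for PGK1, with edgeR adjusted p of 0.646, 0.330 and 0.241. Listed pseudogenes named after these enzymes held little, at most 1.23% of the counts of their parent (LDHA). ALDOC, the brain form of aldolase, had a log2 fold change of -0.17 (edgeR adjusted p = 0.272).

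PGAM1, which moves the phosphate of 3-phosphoglycerate, had 565, 599 and 582 CPM in sh-NC and 669, 650 and 624 CPM in sh-LINC01977. Each targeted library was above each control, but the log2 fold change of 0.15 did not pass (edgeR adjusted p = 0.0571), although it did in 5 of the 14 alternative fits. BPGM, which makes the 2,3-bisphosphate, had 9.13, 8.35 and 8.72 CPM in sh-NC and 10.3, 11.4 and 12.04 CPM in sh-LINC01977. These groups were also separate, with a log2 fold change of 0.37 (edgeR adjusted p = 0.0615) that passed in 4 of the 14 alternatives. MINPP1, a phosphatase of that bisphosphate and of inositol phosphates, had a value of 0.04, and PGAM4, a near copy of PGAM1 that lies inside ATP7A, had -0.10.

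Both minor enolases had higher values in sh-LINC01977, and 1 of them passed. ENO3 (ENSG00000108515, chr17:4948092-4957131, plus strand), the muscle enolase, had 29.1, 28.7 and 30.8 CPM in sh-NC and 34.8, 36.2 and 34.7 CPM in sh-LINC01977. The groups did not overlap, and the log2 fold change was 0.25 ± 0.06 SE (edgeR adjusted p = 0.0378). The call was lost without the filter on low values (adjusted p = 0.119), with the replicate number as a block (0.0927) and in each of the 6 fits that left out 1 library (0.0559 to 0.113). ENO3 also shares 970 bases with PFN1 on the opposite strand, which had 208471 counts over the 6 libraries against 10718 for ENO3 and a log2 fold change of 0.09. ENO2, the neuronal enolase, had 65.0, 72.0 and 57.2 CPM in sh-NC and 91.0, 82.8 and 76.3 CPM in sh-LINC01977. It was higher in all 3 targeted libraries, at a log2 fold change of 0.37 (edgeR adjusted p = 0.0618) that passed in 4 of the 14 alternatives, and shares 499 bases with LRRC23. Together both remained small beside ENO1, whose share of summed enolase FPKM was 96.9 ± 0.06% in sh-NC and 96.1 ± 0.08% in sh-LINC01977.

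**Figure D3:**
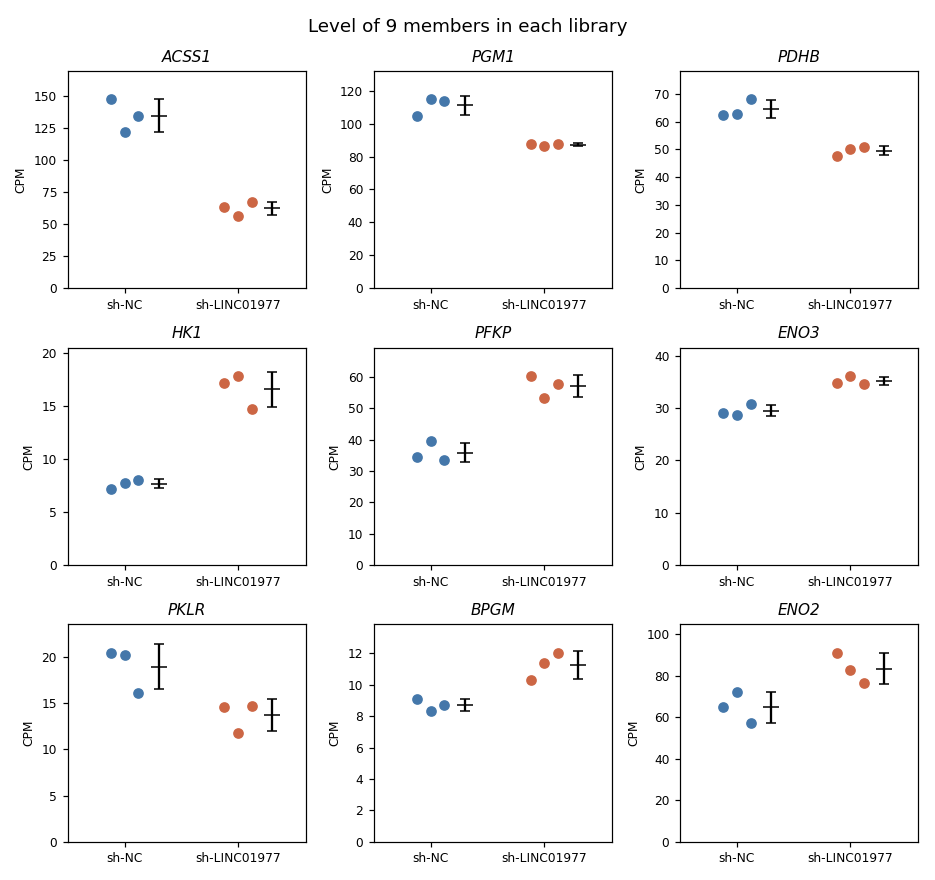
CPM (vertical axis, linear and starting at 0) of the 6 called genes and of PKLR, BPGM and ENO2 in each library, with points for libraries and bars for the mean and SD of 3 libraries per group. In all 9 genes the points of the groups do not overlap, and the gap is widest relative to the level in HK1 and ACSS1.

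At pyruvate kinase the isoenzymes had values of opposite sign, neither called. PKM, the form of most tissues and tumours, had 1095, 1316 and 979 CPM in sh-NC and 1488, 1184 and 1326 CPM in sh-LINC01977. One sh-LINC01977 library lay inside the range of the controls, and the log2 fold change was 0.24 (95% interval -0.06 to 0.54, edgeR adjusted p = 0.25). PKLR (ENSG00000143627, chr1:155289839-155301434, minus strand), the liver and red cell form, had 20.5, 20.2 and 16.2 CPM in sh-NC and 14.6, 11.7 and 14.7 CPM in sh-LINC01977. All 3 targeted libraries were below the controls, with a log2 fold change of -0.47 ± 0.14 SE that did not pass (edgeR adjusted p = 0.0692). It passed in 2 of the 14 alternatives, among them the fit without the third sh-NC library (edgeR adjusted p = 0.0482). The share of PKLR in summed pyruvate kinase FPKM was 5.23 ± 0.49% in sh-NC and 3.25 ± 0.22% in sh-LINC01977, without overlap (exact p = 0.1). Taken from counts, the difference was -0.639 in place of -1.97 percentage points. LDHA, which reduces pyruvate to lactate, had 933, 1080 and 1244 CPM in sh-NC and 1155, 1223 and 1051 CPM in sh-LINC01977. These overlapped, at a log2 fold change of 0.07 (95% interval -0.19 to 0.33).

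Where pyruvate and acetate enter the mitochondrial acetyl-CoA pool, PDHB and ACSS1 were lower. ACSS1 (ENSG00000154930, chr20:25006230-25058980, minus strand), the mitochondrial acetyl-CoA synthetase that activates acetate, had 148, 122 and 134 CPM in sh-NC and 63.2, 56.6 and 67.0 CPM in sh-LINC01977. No targeted library came near the controls, and the decrease was 2.16-fold (log2 fold change -1.11 ± 0.09 SE, 95% interval -1.34 to -0.89, edgeR adjusted p = 0.00130). ACSS1 overlaps no listed gene, and its call was kept in all 14 alternatives. PDHB (ENSG00000168291, chr3:58427630-58433857, minus strand), the beta subunit of the E1 enzyme of pyruvate dehydrogenase, had 62.3, 62.7 and 68.1 CPM in sh-NC and 47.6, 50.1 and 50.7 CPM in sh-LINC01977. The groups were separate, with a 1.30-fold decrease (log2 fold change -0.38 ± 0.06 SE, edgeR adjusted p = 0.00951). The alpha subunit gene PDHA1 had a log2 fold change of -0.07 (95% interval -0.22 to 0.07), and PDHX, which anchors the E3 enzyme to the complex, had 0.03 (95% interval -0.09 to 0.15).

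The gluconeogenic genes were mostly near the floor of the assay, in the controls too. The genes meant are those named for glucose 6-phosphatase, fructose bisphosphatase and phosphoenolpyruvate carboxykinase, which need not all serve gluconeogenesis. Of these, PCK2 and G6PC3 reached the test level and G6PC, PCK1, FBP1 and FBP2 did not. PCK2, the mitochondrial phosphoenolpyruvate carboxykinase, had 181, 201 and 157 CPM in sh-NC and 182, 165 and 161 CPM in sh-LINC01977. G6PC3, the glucose 6-phosphatase of most tissues, had 53.9, 48.2 and 47.1 CPM in sh-NC and 64.1, 58.3 and 46.4 CPM in sh-LINC01977. Both overlapped between groups, with log2 fold changes of -0.09 and 0.18 (edgeR adjusted p = 0.588 and 0.384).

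The 12 genes below the test level had means of at most 0.254 FPKM, and among them are enzymes of gluconeogenesis in the mature hepatocyte. G6PC, the liver glucose 6-phosphatase, had counts of 38, 50 and 109 in sh-NC and 0, 16 and 4 in sh-LINC01977. PCK1, the cytosolic carboxykinase, had 152, 101 and 110 counts in sh-NC and 90, 64 and 77 in sh-LINC01977. In both genes each targeted library had fewer counts than each control, and the same held for LDHB, the heart form of lactate dehydrogenase, with 30, 45 and 41 counts against 25, 12 and 8. With all listed genes tested, none of these 3 passed. Their log2 fold changes were -3.35 for G6PC, -0.69 for PCK1 and -1.42 for LDHB, with edgeR adjusted p of 0.101, 0.232 and 0.197. FBP1 and FBP2, the fructose bisphosphatases, had between 8 and 31 counts in every library, with overlapping groups. GAPDHS, ENO4, LDHC and LDHAL6A, which are largely testis forms, had at most 8 counts in any library. Low counts were unevenly listed, since a count of 4 occurred 8101 times in the table but a count of 3 only 2780 times and a count of 5 only 1758 times.

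**Figure D4:**
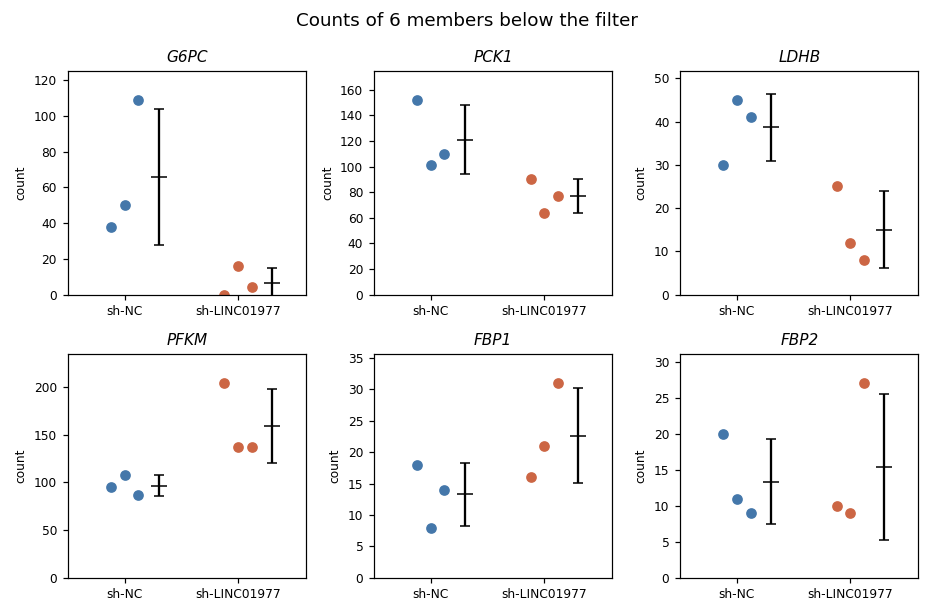
Counts (vertical axis, starting at 0 and not scaled for depth) of 6 genes below the test level in each library, with points for libraries and bars for the mean and SD of 3 libraries, drawn down to 0 only. G6PC, PCK1 and LDHB have fewer counts in every sh-LINC01977 library than in any sh-NC library, PFKM has more, and FBP1 and FBP2 overlap.

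The promoters of these genes were read from RefSeq (GRCh38.p14), where 40 of the 43 genes matched 69 windows from 250 bases before to 50 bases after a start site. The letters ACGTG, the core of the element that hypoxia-inducible factors bind, were searched on both strands, as were CACGTG, the E-box of basic helix-loop-helix factors, which contains ACGTG on each strand, and GGGCGG, the box of Sp1. ACGTG was found in 39.1% of the 69 windows and in 21.4% of all 35116 windows. CACGTG was found in 15.9% against 7.26%, and GGGCGG in 59.4% against 45.0%. The windows of the glycolytic genes were also richer in G and C (median 65.0% against 58.7%). Windows of the same gene can overlap, so the same letters can count in several windows, as CACGTG does in G6PC3. Among the called genes, PDHB, PFKP and PGM1 had ACGTG, PDHB alone had CACGTG, and all 6 had GGGCGG. Of the 31 tested genes, which all matched, 17 had ACGTG, 9 had CACGTG and 25 had GGGCGG. Counted by gene, 52.5% of the 40 matched genes had ACGTG, 22.5% had CACGTG and 77.5% had GGGCGG in at least 1 window. Shares by gene were not computed over all genes, and a gene with several windows has more places for a match. These shares by gene therefore have no background to stand beside. A match is a description of the letters and not a site of binding.

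The upstream 250 bases of 3 genes are shown 5′ to 3′ because LDHA, which was not called, and PDHB, which was called lower, hold ACGTG and CACGTG there, and because the liver pyruvate kinase gene holds another element. For LDHA (chr11:18394313-18394562, plus strand) and PDHB (chr3:58433833-58434082, minus strand), capitals mark ACGTG on either strand, including where it lies within CACGTG. For PKLR (chr1:155300953-155301202, minus strand), the more downstream of its 2 windows, which held neither ACGTG nor CACGTG, capitals mark CACGGGNNNNNCCCGTG, the form of the carbohydrate response element known from liver pyruvate kinase, which begins 126 bases before the start site.
LDHA: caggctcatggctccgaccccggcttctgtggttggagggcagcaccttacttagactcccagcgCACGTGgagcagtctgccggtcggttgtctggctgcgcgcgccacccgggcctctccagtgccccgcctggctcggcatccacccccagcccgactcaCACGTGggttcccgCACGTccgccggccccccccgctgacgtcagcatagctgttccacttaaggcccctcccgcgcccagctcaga
PDHB: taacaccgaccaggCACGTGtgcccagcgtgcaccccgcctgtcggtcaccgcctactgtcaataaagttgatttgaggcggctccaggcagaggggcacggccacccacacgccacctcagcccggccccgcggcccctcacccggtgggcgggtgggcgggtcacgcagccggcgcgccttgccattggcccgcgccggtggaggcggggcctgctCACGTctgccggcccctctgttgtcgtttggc
PKLR: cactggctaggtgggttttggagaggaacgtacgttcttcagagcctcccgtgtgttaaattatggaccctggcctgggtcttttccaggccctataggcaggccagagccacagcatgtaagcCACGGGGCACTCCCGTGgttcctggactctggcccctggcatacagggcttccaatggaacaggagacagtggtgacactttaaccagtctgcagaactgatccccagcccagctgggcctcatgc
The LDHA window shown had CACGTG at 2 places and the PDHB window at 1, while the other LDHA window (chr11:18396101-18396400) had neither CACGTG nor ACGTG. The PKLR letters were in no other window of the 35116, but they were chosen after this sequence had been read, so that count describes the sequence only.

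Within the groups, many of the glycolytic genes had their extremes in the same libraries. In the second sh-NC library 18 of the 31 genes, or 58.1%, had their highest level of the group, while 33.3% of all genes did. The third sh-NC library was lowest in 19 of the 31, beside 34.4% of all genes. Among the targeted libraries, the first was highest in 16 of 31 (51.6%, against 34.1% of all genes). The third targeted library was lowest in 18 of 31, beside 33.4% of all genes. The median deviation from the group mean was 0.08 on the log2 scale in the second sh-NC library and -0.07 in the third. Single genes deviated further, such as ADPGK at -0.43 and HK2 at -0.30 in the third sh-NC library.

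A list of 12 genes outside glycolysis that low oxygen is known to induce had its extremes in the same libraries. Of these, 11 were highest in the second sh-NC library, with median deviations of 0.26 there, -0.03 in the first and -0.21 in the third. In sh-LINC01977 the medians were 0.11, 0.09 and -0.21. None of the 12 was called between the groups by edgeR (1 had an unadjusted p under 0.05), and their median log2 fold change was 0.04. The part of this variation in the values of the glycolytic genes was not tested. Without the second sh-NC library, 2 of the 31 genes were called higher (HK1 and PFKP) and 3 lower, among 1323 calls over all genes. Each of the other fits without 1 library also called 2 higher.

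**Figure D5:**
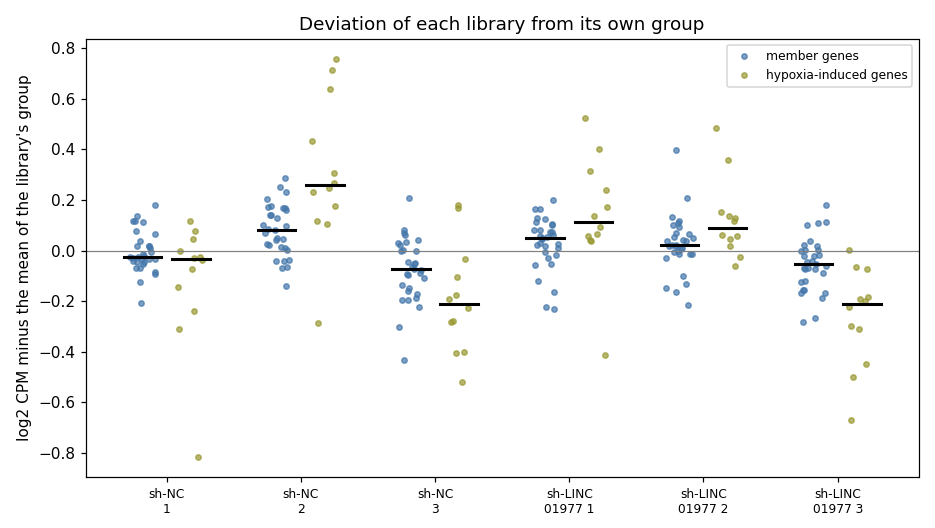
Deviation of log2 CPM from the mean of the library's own group (vertical axis) for the 31 tested glycolytic genes and the 12 hypoxia-induced genes in each library, with points for genes and black lines for medians. Both sets lie mostly above 0 in the second sh-NC library (medians 0.08 and 0.26) and mostly below 0 in the third library of each group.

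Genes around the pathway were taken from lists of its carriers, branches and regulators. Of 13 tested glucose and lactate carriers, 1 was called higher and 3 lower by edgeR, beside 7.05% and 8.07% of all genes. SLC2A1, the general glucose transporter, had a log2 fold change of 0.34 (adjusted p = 0.0273). The lactate carriers SLC16A1 and SLC16A3 had -0.33 and -0.47 (adjusted p = 0.0160 and 0.00756), and the urate and hexose carrier SLC2A9 had -0.39 (adjusted p = 0.0134). SLC2A2, the hepatocyte glucose transporter, had 0.08 (95% interval -0.11 to 0.26). None of the 5 genes that set fructose 2,6-bisphosphate, the activator of phosphofructokinase, had an unadjusted p under 0.05 or was called.

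Of 11 tested genes for the further fate of pyruvate, 3 were lower and none higher by edgeR, beside 8.07% and 7.05% of all genes. MPC1 and MPC2, which together form the mitochondrial pyruvate carrier, had log2 fold changes of -0.80 and -0.35 (adjusted p = 0.0116 and 0.0272), on the same side as PDHB. GPT2, the mitochondrial alanine aminotransferase, had -0.32 (adjusted p = 0.0170). The pyruvate dehydrogenase kinases PDK1, PDK2 and PDK3 were not called, with values of -0.10, 0.23 and 0.12.

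Of 27 regulators of the pathway, 2 were higher and 5 lower by edgeR, beside the same 7.05% and 8.07% of all genes. TXNIP, which restrains glucose uptake, rose by 0.71 on the log2 scale (adjusted p = 0.00181), and PRKAA1, a catalytic subunit of AMP-activated kinase, by 0.42 (adjusted p = 0.0194). The lower genes were transcription factors and a coactivator of the hepatocyte programme. ONECUT1 had a log2 fold change of -1.58, PPARGC1A, the coactivator of gluconeogenic genes, -1.02, and MLXIPL, the factor that binds the carbohydrate response element, -0.80 (adjusted p = 0.00409, 0.00287 and 0.0166). HNF4A, which is also among the hepatocyte markers, had -0.55 (adjusted p = 0.00715), and CEBPA -0.22 (adjusted p = 0.0230). HIF1A, the oxygen-regulated subunit of the hypoxia factor, had -0.23 and was not called (adjusted p = 0.0610). Its relative EPAS1, singled out after its values were seen, had 264, 288 and 269 CPM in sh-NC and 209, 216 and 96.3 CPM in sh-LINC01977, and was not called (adjusted p = 0.176). The third sh-LINC01977 library stood far below the other targeted libraries in EPAS1. In the fit without that library, HK1, PFKP, ACSS1, PGM1 and PDHB were called and ENO3 was not. What set the library apart was not tested.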

How the data were processed

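For 6 HepG2 libraries, TRIzol was used for RNA extraction and an Illumina HiSeq for sequencing. The counts deposited by the authors are whole numbers per gene without normalization, and the FPKM values deposited by the authors are scaled for transcript length and depth. The submitters' processing notes name bcl2fastq 2.0, HISAT2, StringTie, DESeq2, limma and the build hg38 without roles, and the annotation and use of strand are not given in the sources used here. Columns with the authors' own comparison (fold changes and p-values) were not used.

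Counts were tested with edgeR 4.0.16 (TMM scaling, quasi-likelihood test, Benjamini-Hochberg adjustment over the 13452 genes whose FPKM averaged 0.5 or more) in R 4.3.3. Standard errors were the fold change divided by the square root of F. CPM used TMM-scaled totals over the tested genes. Isoenzyme shares were compared with an exact two-sided permutation test.

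Values in every library are given for called genes, for enzymes of irreversible steps and for abundant reversible enzymes. The gene set and the lists around it were chosen with earlier results of these data known. Alternatives used DESeq2 1.42.0, limma 3.58.1 on log2 FPKM with pseudocounts of 0.1 and 1, other scalings and filters, the replicate number as a block, and leaving out each library. Totals of 49929024 to 60441515 counts set the precision, which covers counting and the spread of these libraries only. A few listed markers or carriers were not analysed here. Results on some genes are not reported here.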

Additional observations from a re-analysis of the deposited data

How the results depend on the processing

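HK1, PFKP, ACSS1, PGM1 and PDHB were called in all 14 alternative fits. The number of glycolytic genes called higher was 3 and became 6 with DESeq2, 7 with library totals in place of TMM, and 6 with limma on log2 FPKM at a pseudocount of 0.1 and 6 at a pseudocount of 1. Over all genes those fits called 2845, 2223, 1998 and 2019, against 2033. The number called lower stayed at 3 or 4. Leaving out 1 library each time gave between 1176 and 1398 called genes in all and 2 glycolytic genes called higher. With the replicate number as a block (replicate block), 1390 genes were called in all, of which 2 of the glycolytic genes were higher and 3 lower. The deviations of same-numbered libraries had correlations of -0.0286, 0.0174 and 0.0552, so the numbers did not pair them.

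Signs that turned all belong to genes that were not called. With library totals, ENO1 had a log2 fold change of 0.062, ALDOA 0.0011 and PGM2 0.046. ENO1 had 0.0045 with a mean FPKM of at least 1. With limma, ENO1 had 0.063 at either pseudocount and PGM2 0.041 and 0.038. Leaving out 1 library gave ENO1 values from -0.049 to 0.063, PGM2 from -0.087 to 0.057, ALDOA from -0.12 to 0.024, HK2 from -0.11 to 0.18, LDHA from -0.024 to 0.19 and PFKL from -0.13 to 0.022. Taken from summed counts, the share differences were -9.75 percentage points for PFKL, 9.28 for PFKP, 0.639 for PKM and -0.639 for PKLR, in place of -12.1, 11.7, 1.97 and -1.97. Summed counts are not scaled for transcript length, while FPKM is. The causes of the turned signs and of the changed share differences were not tested. With all listed genes tested, edgeR called none of the 12 genes below the filter, whose means were at most 0.254 FPKM.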

Other observations

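In 4 lists of branches that join or leave the pathway, edgeR called 6 of 36 tested genes lower (16.7%, beside 8.07% of all genes) and none higher (beside 7.05% of all genes). Of 8 tested pentose phosphate genes, RPIA, which isomerizes ribose 5-phosphate, had a log2 fold change of -0.61 (adjusted p = 0.00146) and PGD, the second oxidative enzyme, -0.19 (adjusted p = 0.0232). Of 5 genes of serine synthesis, PSAT1 had -0.25 (adjusted p = 0.0124) and PSPH -0.46 (adjusted p = 0.0349). Of 10 genes for the entry of fructose and galactose, TKFC, the kinase of triose and dihydroxyacetone, had -0.73 (adjusted p = 0.00481). Of 13 glycogen genes, PYGL, the liver glycogen phosphorylase, had -0.30 (adjusted p = 0.0183).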
